A study of Rattus norvegicus with 12 samples.

Results

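The genes described here encode the enzymes that burn fatty acids, the enzymes that make and use ketone bodies, and the regulators and targets of the peroxisome proliferator-activated receptors (PPAR), measured in whole rat pancreas. 42 genes were listed by name, and each was read from 1 probe set, the brightest by its mean over the 12 arrays among those annotated with that symbol alone. 41 of the 42 were measured, out of 10411 gene symbols with such a probe set on the array. Acaa1a, a peroxisomal thiolase, had only a probe set that it shares with Acaa1b, and has no value here.

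Fatty acids are activated to acyl-CoA, carried into mitochondria as carnitine esters, and shortened in a repeated spiral of dehydrogenation, hydration, a further oxidation and thiolysis. Auxiliary enzymes move or reduce the double bonds of unsaturated fatty acids so that these can enter the spiral, and the electron transfer flavoprotein passes the electrons to the respiratory chain. Peroxisomes hold their own set of enzymes for very long and branched chains, and PPARα, a nuclear receptor that binds fatty acids, is known to switch on genes of both pathways in liver, heart and muscle.

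The rats were adult male Wistar animals, and in DU and DT diabetes had been induced with streptozotocin (STZ), a toxin taken up by beta cells. HU were healthy untreated rats and DU diabetic untreated rats, both maintained for 5 to 6 weeks, during which the DU animals stayed hyperglycaemic. HT were healthy and DT diabetic rats given sodium tungstate, an oral agent that lowers glycemia. The sample labels give 0.7 g/L for 1 week and 2 g/L for another 4 to 5 weeks, and for DT a treatment until glycemia was near normal. The study's methods name the higher concentration alone and a fixed time, and its text describes a partial return of glycemia, so that dose schedule and final glycemia are not settled here. Every group is represented by 3 arrays. RNA of 3 rats was pooled in equal parts for an array, so that the spread between arrays is a spread between pools, and n = 3 in every group.

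Values are log2 intensities, and a log2 difference of 1 is a doubling. Changes were tested with limma over all 15866 probe sets that are not controls. A gene was called higher or lower at a Benjamini-Hochberg adjusted p under 0.05, and the adjusted p-values below are from that test. Values after ± are standard errors (SE), unless marked SD. The median of an array was 6.63 to 6.70, and any pair of arrays correlated at 0.976 to 0.995. 4 of the genes, Acadsb, Eci2, Ehhadh and Ppargc1a, were dim, with a mean under 5.62, the 25th percentile of all probe sets. Scanning took place on 6 days with chips of 3 lots. No scan day held both DU and HU arrays, while chip lot 1 held DU1, DU2 and HU3.

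Comparing DU with HU asks what STZ diabetes changed. 17 of 41 genes (41.5%) were higher and 1, Ppara, was lower. They included all 3 auxiliary enzymes of unsaturated fatty acids, all 3 genes of electron transfer, 2 of 7 peroxisomal genes and none of the 3 ketone genes. Decr1, Ech1, Angptl4 and Acadl were each over 3-fold higher. A block for scan day reads this comparison from DU1, HU3 and treated arrays alone, as the other DU and HU arrays share no scan day with another group. With scan day as a block, Decr1 alone of the 17 was still called, with standard errors that were wider in all 17, and 4 of the differences, in Acaa2, Pdk4, Etfb and Hsd17b4, shrank by more than 1.5 times. Over all probe sets 1.47% were called higher and 1.73% lower, together 3.2%. Without adjustment, p was under 0.05 for 30 of the genes, against 20.2% of all probe sets, and 15 had a B-statistic (log odds of a change) above 0, against 1.82%. Of 13 genes of the mitochondrial spiral, that is the dehydrogenases, the steps from hydration to thiolysis and the 3 auxiliary enzymes, 9 were called higher, with a median log2 fold change of 0.79. The median over all 41 genes was 0.32, and over all probe sets -0.02. All 3 DU arrays lay above all 3 HU arrays in 24 of 41 genes (58.5%, against 12.5% of all probe sets), and below them in 6, against 16.9%.

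When DT was compared with DU, 13 of the 41 genes (31.7%) were lower and none was higher with limma. Over all probe sets 0.46% were called lower and 0.655% higher. Without adjustment, p was under 0.05 for 23 of the genes, 21 of them lower and 2 higher, against 9.89% of all probe sets, and 12 had a B-statistic above 0, against 1.05%. The median log2 difference was -0.26, and 0.00 over all probe sets. Every DT array lay below every DU array in 20 genes (48.8%, against 6.28% of all probe sets) and above it in 1 (2.44%, against 7.58%). Both comparisons rest on the same 3 DU arrays, so they are given side by side and not as support for each other. In 10 of the 13 genes lower in DT, the second DT array was the lowest of the 3.

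**Figure D1:**
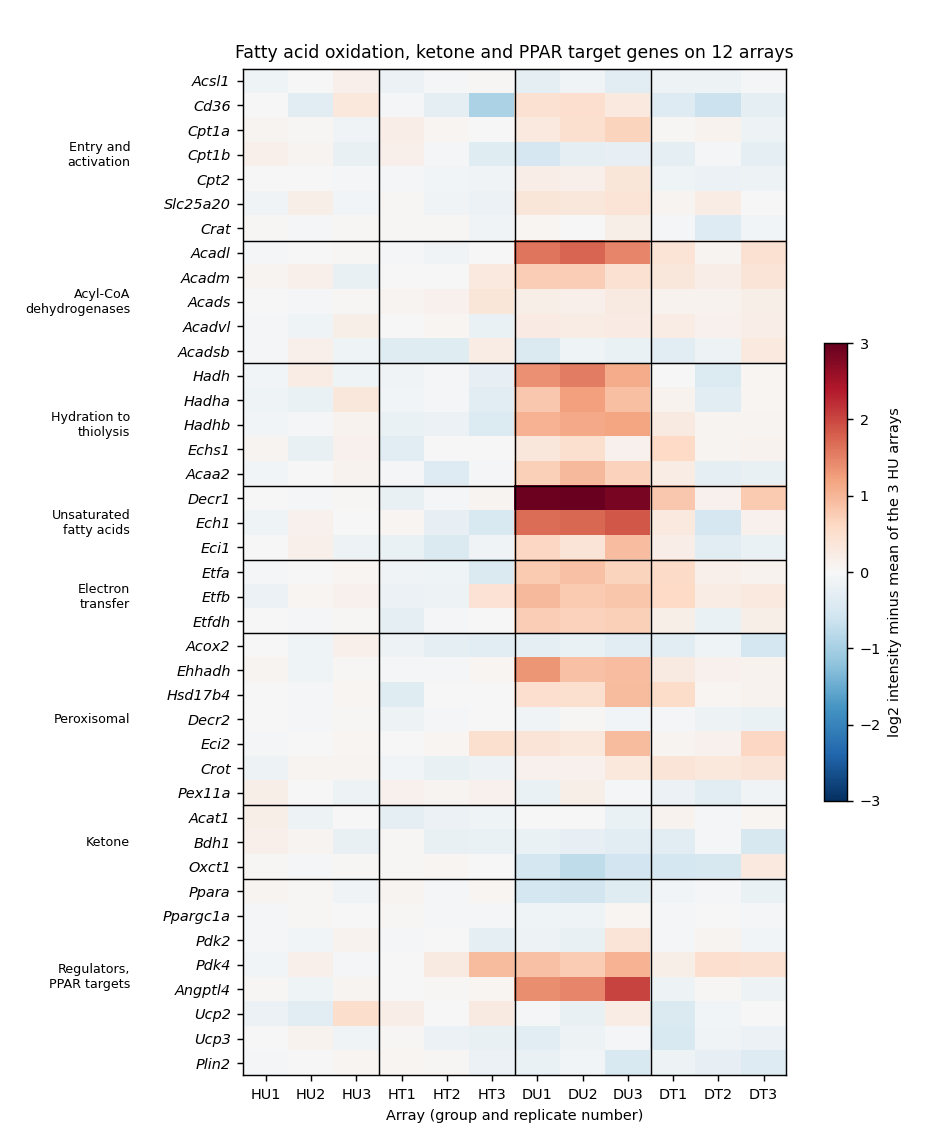
Heat map of the 41 measured genes (rows, grouped by role) on the 12 arrays (columns); colour is the log2 intensity of an array minus the mean of the 3 HU arrays of that gene. The DU columns are red for 17 called genes from Cpt1a to Angptl4, with the deepest colour in Decr1, and the ketone rows are pale or blue.

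**Figure D2:**
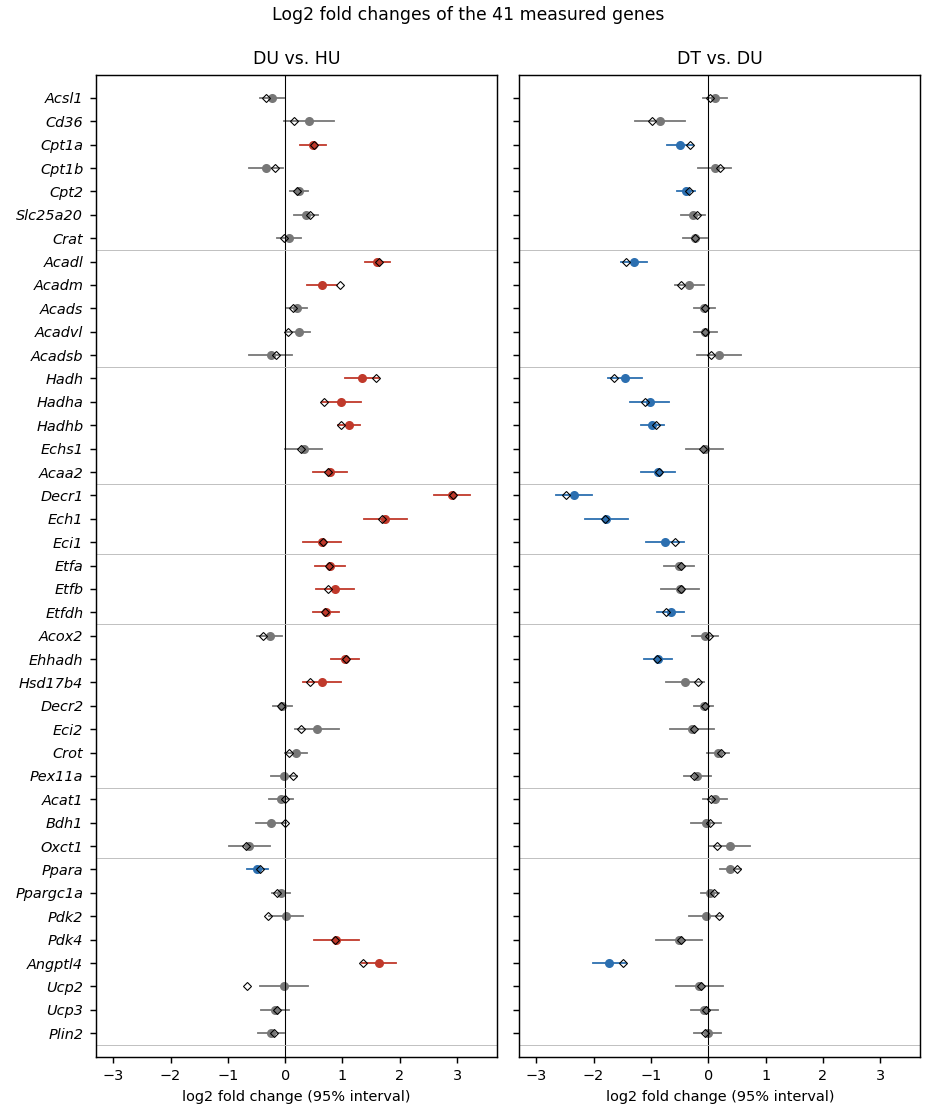
Log2 fold changes of the 41 genes with their 95% intervals from limma, DU vs. HU on the left and DT vs. DU on the right (red, called higher; blue, called lower; grey, not called); open diamonds are the differences within chip lot 1. On the left 17 genes are red and 1 blue, on the right 13 are blue and none red.

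Among the 7 genes of entry and activation, 1 was called higher in DU and 2 were called lower in DT. Cpt1a encodes the liver-type carnitine palmitoyltransferase of the outer mitochondrial membrane, the rate-controlling step of entry. It read 8.13, 8.08 and 7.93 in HU, 8.24, 8.11 and 8.03 in HT, 8.35, 8.52 and 8.71 in DU and 8.08, 8.15 and 7.88 in DT. The DU arrays were the highest 3 of the 12, and HU, HT and DT overlapped. It was 0.48 ± 0.11 log2 units higher in DU than HU (adjusted p = 0.0287) and 0.49 ± 0.11 lower in DT than DU (adjusted p = 0.0451). The first call was lost without DU2, DU3, HU1, HU2 or HU3, at adjusted p between 0.0607 and 0.0925. The second was lost without any 1 of 10 of the arrays, DU1 and HU3 being the exceptions, at adjusted p between 0.0503 and 0.159.

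A second probe set of Cpt1a was dimmer over the 12 arrays and moved further. It read 6.73, 6.90 and 6.68 in HU, 6.28, 6.73 and 6.58 in HT, 8.86, 9.18 and 9.08 in DU and 8.06, 7.03 and 7.96 in DT. It was 2.27 ± 0.21 higher in DU than HU (adjusted p = 4.15e-05) and 1.36 ± 0.21 lower in DT than DU (adjusted p = 0.00495), so the direction was the same with both probe sets and the size was not. With the mean of both, Cpt1a was 1.37 ± 0.12 higher in DU than HU (adjusted p = 1.68e-05).

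Cpt1b, the muscle-type isoform, was not called in either comparison. It read 6.80, 6.73 and 6.44 in HU, 6.81, 6.61 and 6.29 in HT, 6.15, 6.39 and 6.42 in DU and 6.35, 6.59 and 6.35 in DT. The DU arrays lay below those of HU and overlapped those of DT. The difference from HU to DU was -0.34 ± 0.14 (adjusted p = 0.19). Cpt2, the transferase of the inner membrane, was 0.39 ± 0.07 lower in DT than DU (adjusted p = 0.0174), and 0.24 ± 0.07 from HU to DU without a call (adjusted p = 0.0974). The lower value in DT was not called without DT2, DU1 or DU3, at adjusted p between 0.0543 and 0.0731. Slc25a20, the carnitine-acylcarnitine translocase between both transferases, had 3 DU arrays above the HU arrays, but missed the threshold, at 0.37 ± 0.10 (adjusted p = 0.0557).

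The fatty acid transporter Cd36 differed by 0.41 ± 0.20 in DU vs. HU (adjusted p = 0.276) and by -0.84 ± 0.20 in DT vs. DU (adjusted p = 0.0791). Every DT array of Cd36 lay below every DU array, yet HU ranged from 6.24 to 6.88 and HT from 5.61 to 6.52. Acsl1, a long-chain acyl-CoA synthetase, and Crat, carnitine acetyltransferase, were not called in either comparison, with DU vs. HU differences of -0.24 and 0.07.

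Of the 5 acyl-CoA dehydrogenases, which take the first step of the spiral for different chain lengths, the genes for long and medium chains were higher in DU. Acadl, the long-chain enzyme, read 6.71, 6.74 and 6.78 in HU, 6.71, 6.63 and 6.72 in HT, 8.36, 8.48 and 8.21 in DU and 7.16, 6.82 and 7.19 in DT. The DU arrays stood far above the others, and DT lay just above HU and HT without overlap. Acadl was 3.05-fold higher in DU than HU (1.61 ± 0.10 log2, adjusted p = 1.24e-06) and 2.45-fold lower in DT than DU (-1.29 ± 0.10, adjusted p = 1.13e-05).

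Acadm, the medium-chain enzyme, read 8.20, 8.27 and 7.90 in HU, 8.14, 8.15 and 8.42 in HT, 8.86, 8.87 and 8.57 in DU and 8.46, 8.33 and 8.52 in DT. Its DU arrays were all above those of the other groups, by a narrower margin. It was 0.64 ± 0.12 higher in DU than HU (adjusted p = 0.00954), a call lost without DU1 or DU2 (adjusted p between 0.0514 and 0.0562). In DT vs. DU it differed by -0.33 ± 0.12 without a call (adjusted p = 0.323). The short-chain Acads, the very-long-chain Acadvl and the branched-chain Acadsb were not called, with DU vs. HU differences of 0.20, 0.24 and -0.25.

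Of the 5 genes that take the spiral from hydration to thiolysis, 4 were higher in DU than HU and 4 were lower in DT than DU, with medians of 0.98 and -0.97. Hadha and Hadhb encode the 2 subunits of the mitochondrial trifunctional protein, which carries out these steps for long chains. Hadha read 7.47, 7.40 and 7.94 in HU, 7.53, 7.55 and 7.26 in HT, 8.41, 8.82 and 8.51 in DU and 7.71, 7.30 and 7.66 in DT. Hadhb read 8.65, 8.70 and 8.84 in HU, 8.53, 8.56 and 8.31 in HT, 9.77, 9.86 and 9.91 in DU and 8.99, 8.81 and 8.82 in DT. In both genes the DU arrays were the highest 3 of the 12, and the DT arrays lay at or close to those of HU.

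Hadha was 1.97-fold higher in DU (0.98 ± 0.16, adjusted p = 0.00425) and 2.04-fold lower in DT than DU (-1.03 ± 0.16, adjusted p = 0.00451). Hadhb was 2.17-fold higher in DU (1.12 ± 0.09, adjusted p = 1.04e-05) and 1.97-fold lower in DT than DU (-0.97 ± 0.09, adjusted p = 5.02e-05). The 2 genes lie head to head on rat chromosome 6. In the RefSeq annotation of GRCr8 their starts, Hadha at 31907801 and Hadhb at 31907500, are on opposite strands with 300 bases between them. The stretch before the Hadha start is shown because it is most of the interval that these 2 genes share. It lies at chr6:31907551-31907800 on the plus strand, is written 5′ to 3′ along Hadha, and has its single match to GGGCGG, on the other strand, in capitals.
Hadha: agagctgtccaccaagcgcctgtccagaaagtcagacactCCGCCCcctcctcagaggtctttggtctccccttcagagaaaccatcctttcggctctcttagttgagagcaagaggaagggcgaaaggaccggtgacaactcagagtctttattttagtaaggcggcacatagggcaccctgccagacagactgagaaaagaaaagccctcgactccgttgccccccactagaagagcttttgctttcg

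Hadh, the 3-hydroxyacyl-CoA dehydrogenase of shorter chains, read 8.71, 9.00 and 8.66 in HU, 8.68, 8.75 and 8.53 in HT, 10.16, 10.32 and 9.91 in DU and 8.79, 8.39 and 8.85 in DT. The DU arrays were the highest 3 of the 12, and DT overlapped HU and HT. It was 1.34 ± 0.14 higher in DU than HU (adjusted p = 0.000107) and 1.45 ± 0.14 lower in DT than DU (adjusted p = 6.23e-05). A second probe set annotated to Hadh showed neither difference, at -0.11 ± 0.12 in DU vs. HU (adjusted p = 0.656) and -0.08 ± 0.12 in DT vs. DU (adjusted p = 0.911). With the mean of both, the DU vs. HU difference was 0.61 ± 0.11 (adjusted p = 0.00699).

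Acaa2, the mitochondrial thiolase, read 7.69, 7.74 and 7.87 in HU, 7.71, 7.39 and 7.72 in HT, 8.47, 8.74 and 8.45 in DU and 7.99, 7.50 and 7.54 in DT. The groups DU and HU, and DU and DT, did not overlap. It was 0.79 ± 0.14 higher in DU than HU (adjusted p = 0.00632) and 0.88 ± 0.14 lower in DT than DU (adjusted p = 0.00461). Echs1, the short-chain enoyl-CoA hydratase, was the gene of this step that was not called. It differed by 0.32 ± 0.15 in DU vs. HU (adjusted p = 0.246) and by -0.06 ± 0.15 in DT vs. DU.

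The 3 mitochondrial auxiliary enzymes of unsaturated fatty acids were all higher in DU than HU and all lower in DT than DU, with medians of 1.75 and -1.78. Decr1, the 2,4-dienoyl-CoA reductase, had the widest difference of the 41 genes in both comparisons. It read 7.79, 7.73 and 7.79 in HU, 7.55, 7.71 and 7.85 in HT, 10.70, 10.75 and 10.61 in DU and 8.58, 7.90 and 8.55 in DT. HU and HT overlapped, DU stood far above them, and DT lay between them and DU, with DT2 just above HU and DT1 and DT3 further up. Decr1 was 7.54-fold higher in DU than HU (2.91 ± 0.15, adjusted p = 8.92e-08) and 5.07-fold lower in DT than DU (-2.34 ± 0.15, adjusted p = 1.06e-06).

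Ech1, a dienoyl-CoA isomerase, read 8.71, 8.95 and 8.83 in HU, 8.89, 8.58 and 8.37 in HT, 10.50, 10.55 and 10.70 in DU and 9.13, 8.33 and 8.96 in DT. The DU arrays were the highest, and DT spanned the range of HU and HT. It was 3.36-fold higher in DU (1.75 ± 0.18, adjusted p = 8.12e-05) and 3.43-fold lower in DT than DU (-1.78 ± 0.18, adjusted p = 8.00e-05).

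Eci1, an enoyl-CoA isomerase, was 0.64 ± 0.15 higher in DU (adjusted p = 0.0378) and 0.75 ± 0.15 lower in DT than DU (adjusted p = 0.03) with its brighter probe set. The other probe set did not show either difference, at -0.19 ± 0.13 (adjusted p = 0.457) and -0.03 ± 0.13 (adjusted p = 0.973), and with the mean of both neither was called (adjusted p = 0.327 and 0.232). The DU vs. HU call was lost without DU1, DU3, HT1, HU1, HU2 or HU3, at adjusted p between 0.0514 and 0.12. The DT vs. DU call was lost without DT2, DT3, DU1, DU3, HT1 or HU1, at adjusted p between 0.0516 and 0.12.

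The 250 bases before the Eci1 start are shown because Eci1 is 1 of the 3 genes higher in DU with a match to AGGTCA, the half-site of the elements that PPAR and related receptors bind. They lie at chr10:13961000-13961249 of GRCr8 on the plus strand, and the capitals mark the match, 94 to 89 bases before the start on the other strand.
Eci1: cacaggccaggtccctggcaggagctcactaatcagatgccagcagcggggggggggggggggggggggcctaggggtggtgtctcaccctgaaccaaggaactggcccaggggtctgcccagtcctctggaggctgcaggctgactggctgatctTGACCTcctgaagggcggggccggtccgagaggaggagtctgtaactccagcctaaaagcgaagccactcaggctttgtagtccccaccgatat

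**Figure D3:**
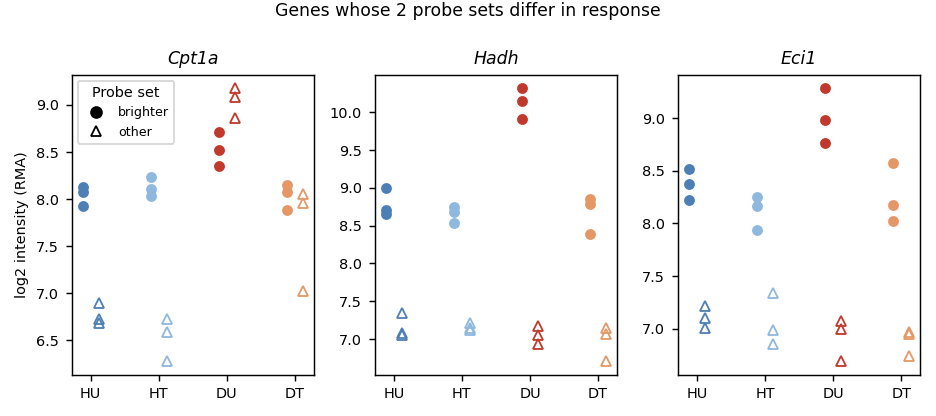
Log2 intensity on each array, by group, of the 2 probe sets of Cpt1a, Hadh and Eci1 (filled circles, the brighter probe set used in the text; open triangles, the other). In Cpt1a both probe sets rise in DU, by 0.48 and 2.27, and in Hadh and Eci1 the triangles stay level, at -0.11 and -0.19 in DU vs. HU.

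The 3 genes of electron transfer were higher in DU than HU, with a median of 0.78. Etfa and Etfb encode the subunits of the electron transfer flavoprotein, and Etfdh the dehydrogenase that passes its electrons to ubiquinone. Etfdh read 5.51, 5.46 and 5.52 in HU, 5.21, 5.43 and 5.48 in HT, 6.24, 6.19 and 6.20 in DU and 5.67, 5.30 and 5.69 in DT. The 3 DU arrays lay close together and above all others. The means of HU, HT and DT lay under 5.62, the mark for dim probe sets. It was 0.71 ± 0.11 higher in DU than HU (adjusted p = 0.00203) and 0.66 ± 0.11 lower in DT than DU (adjusted p = 0.00532).

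Etfa read 6.30, 6.34 and 6.40 in HU, 6.23, 6.22 and 5.92 in HT, 7.13, 7.22 and 7.02 in DU and 6.91, 6.49 and 6.45 in DT. Etfb read 8.99, 9.22 and 9.30 in HU, 9.00, 9.03 and 9.60 in HT, 10.15, 9.95 and 10.01 in DU and 9.77, 9.39 and 9.47 in DT. In both genes the DT arrays lay between those of HU and DU, without overlap with either. Etfa was 0.78 ± 0.12 higher in DU than HU (adjusted p = 0.00309) and -0.50 ± 0.12 in DT vs. DU, which was not called (adjusted p = 0.0775). Etfb was 0.87 ± 0.15 higher in DU than HU (adjusted p = 0.00687) and -0.50 ± 0.15 in DT vs. DU, also not called (adjusted p = 0.212).

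**Figure D4:**
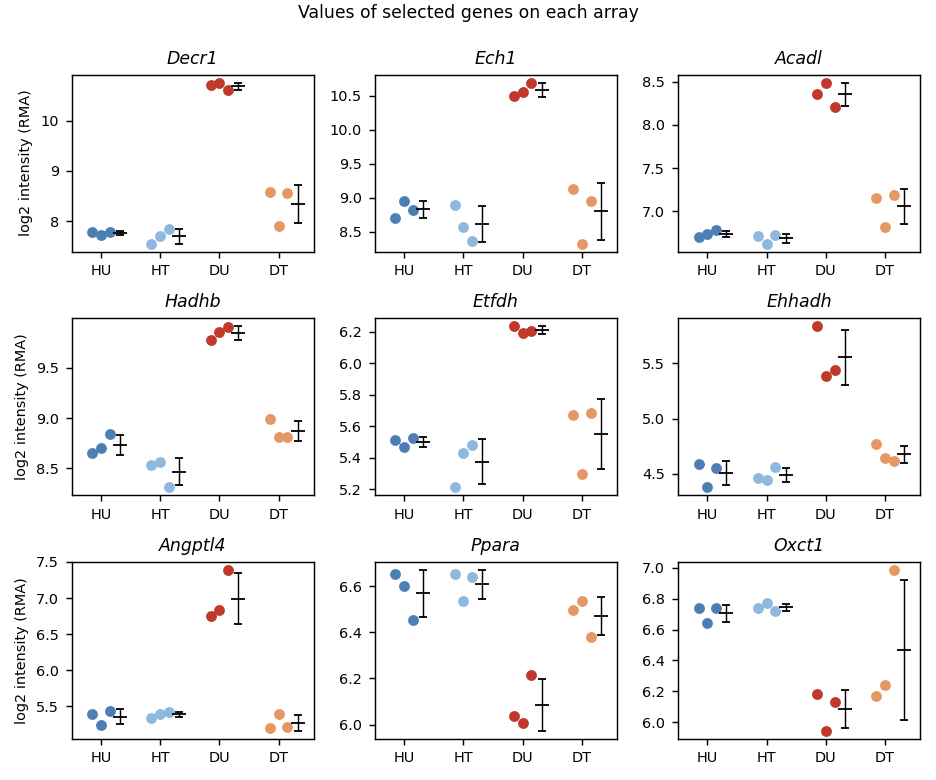
Log2 intensity of 9 of the genes on each of the 12 arrays (points, coloured by group) with the mean and SD of each group (n = 3 pools). In Decr1, Ech1, Acadl, Hadhb, Etfdh, Ehhadh and Angptl4 all 3 DU points lie above all other points, in Ppara they lie below them, and in Oxct1 DT3 is the highest point of all.

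Of the 7 peroxisomal genes measured, 2 were higher in DU and 1 of these was lower in DT than DU, with medians of 0.19 and -0.19. Ehhadh, the bifunctional enzyme of straight-chain oxidation, read 4.59, 4.38 and 4.55 in HU, 4.47, 4.45 and 4.56 in HT, 5.84, 5.38 and 5.44 in DU and 4.77, 4.65 and 4.62 in DT. The probe set is dim, and the DU arrays were nevertheless the highest 3, with DU1 furthest up. It was 2.07-fold higher in DU (1.05 ± 0.11, adjusted p = 0.000126) and 1.84-fold lower in DT than DU (-0.88 ± 0.11, adjusted p = 0.000854).

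Hsd17b4, the bifunctional enzyme of very long and branched chains, was 0.65 ± 0.15 higher in DU (adjusted p = 0.0368) and overlapped between DT and DU. Its call was lost without DU1, DU2, DU3, HT2, HU1, HU2 or HU3, at adjusted p between 0.0523 and 0.115. Eci2, a dim probe set for a peroxisomal isomerase, differed by 0.55 ± 0.18 in DU vs. HU (adjusted p = 0.111). The others were not called, with DU vs. HU differences of -0.27 in Acox2, an oxidase of branched chains, -0.05 in Decr2, the peroxisomal dienoyl-CoA reductase, 0.19 in Crot, which makes carnitine esters for export from peroxisomes, and -0.02 in Pex11a, a peroxisome division factor.

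Related enzymes of 2 compartments or tissues were compared within arrays in 4 pairs and both comparisons, 8 exact two-sided permutation tests in all. With 3 arrays against 3 these cannot give p under 0.1, and the 5 exact tests at p = 0.1 had an adjusted p of 0.16. The change of Decr1 from HU to DU exceeded that of Decr2, its peroxisomal counterpart, by 2.97, and the difference of their changes from DU to DT was -2.26, both without overlap between groups (exact p = 0.1). The change of Cpt1a exceeded that of Cpt1b by 0.82 and from DU to DT the difference was -0.60 (exact p = 0.1 in each). Eci1 and Eci2 differed in their changes by 0.09 (exact p = 0.6) and -0.48 (exact p = 0.3), and Crat and Crot by -0.12 (exact p = 0.3) and -0.41 (exact p = 0.1). These values depend on the probe set. With the other probe set of Cpt1a the Cpt1a and Cpt1b differences were 2.60 and -1.47, and with the other probe set of Eci1 those of Eci1 and Eci2 were -0.74 and 0.24, with the sign turned.

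No ketone gene was called in DU vs. HU or DT vs. DU with limma, where 1 of the 3 had an unadjusted p under 0.05 in each comparison. The medians were -0.25 and 0.12. Acat1, the mitochondrial acetoacetyl-CoA thiolase, read 9.83, 9.51 and 9.66 in HU, 9.38, 9.50 and 9.54 in HT, 9.67, 9.65 and 9.47 in DU and 9.78, 9.63 and 9.74 in DT. Bdh1, which interconverts the ketone bodies acetoacetate and hydroxybutyrate, read 7.99, 7.93 and 7.63 in HU, 7.89, 7.62 and 7.66 in HT, 7.65, 7.60 and 7.54 in DU and 7.53, 7.80 and 7.37 in DT. Both overlapped between DU and HU and between DT and DU, and the 95% intervals of the DU vs. HU difference were -0.27 to 0.14 for Acat1 and -0.51 to 0.01 for Bdh1.

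Oxct1, the CoA transferase with which tissues outside the liver use ketone bodies, read 6.74, 6.64 and 6.74 in HU, 6.74, 6.77 and 6.72 in HT, 6.18, 5.94 and 6.13 in DU and 6.17, 6.24 and 6.99 in DT. The 3 DU arrays lay below all HU and HT arrays, and in DT DT1 and DT2 lay near DU and DT3 above HU. DT3 was also apart in summed marker genes of several cell types. In DT1, DT2 and DT3 those of beta cells summed to 4213, 3484 and 8674, against 2374 to 3170 in DU. Those of other endocrine cells summed to 1790, 1183 and 3136, against 1975 to 2429 in DU. Leukocyte markers summed to 2546, 3215 and 6627 in DT, and stellate and fibroblast markers to 2192, 2372 and 3691. Skeletal muscle markers, at 319, 339 and 334, did not set DT3 apart. DT3 was the only DT array of chip lot 3 and of scan day 5. The part of these in the Oxct1 values was not tested. The difference from HU to DU was -0.62 ± 0.16 (adjusted p = 0.0563) and from DU to DT 0.38 ± 0.16 (adjusted p = 0.449). Oxct1 was called lower in DU without DT1, DT2 or DT3, which gave 2 lower genes in place of 1.

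**Figure D5:**
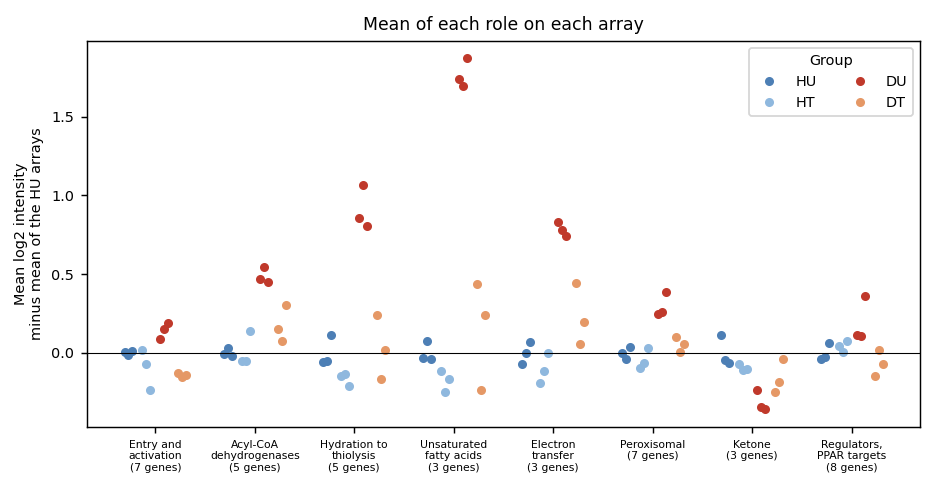
Mean over the genes of each role, on each array, of the log2 intensity minus the mean of the HU arrays (points, coloured by group; the number of genes is under each role). The DU points lie between 1.70 and 1.87 for unsaturated fatty acids, between 0.80 and 1.07 for hydration to thiolysis, between 0.25 and 0.39 for peroxisomal genes and between -0.36 and -0.24 for ketone genes.

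Of the 8 regulators and other PPAR targets, 2 were higher and 1 lower in DU than HU. Angptl4, a secreted inhibitor of lipoprotein lipase, read 5.39, 5.24 and 5.44 in HU, 5.34, 5.40 and 5.42 in HT, 6.75, 6.83 and 7.39 in DU and 5.20, 5.39 and 5.21 in DT. The DU arrays were the highest 3, DU3 most of all, and HU, HT and DT overlapped. Outside DU every array lay under 5.62, the mark for dim probe sets. It was 3.11-fold higher in DU (1.64 ± 0.14, adjusted p = 1.17e-05) and 3.3-fold lower in DT than DU (-1.72 ± 0.14, adjusted p = 1.13e-05).

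The 250 bases before the Angptl4 start are shown as those of the 1 gene among the 13 higher in DU with an entry in the promoter table that has a TATAAA match. They lie at chr7:15258682-15258931 of GRCr8 on the minus strand, and the capitals mark 2 overlapping matches, 41 to 36 bases before the start on the other strand and 39 to 34 on the gene's own strand.
Angptl4: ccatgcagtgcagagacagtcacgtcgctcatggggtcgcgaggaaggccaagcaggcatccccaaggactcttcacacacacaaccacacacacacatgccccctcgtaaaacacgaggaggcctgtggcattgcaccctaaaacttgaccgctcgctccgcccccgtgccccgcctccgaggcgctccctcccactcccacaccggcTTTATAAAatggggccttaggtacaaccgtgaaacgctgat

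Ppara, which encodes PPARα itself, moved the other way. It read 6.65, 6.60 and 6.45 in HU, 6.65, 6.54 and 6.64 in HT, 6.04, 6.01 and 6.21 in DU and 6.50, 6.54 and 6.38 in DT. The DU arrays were the lowest 3 of the 12. It was 0.48 ± 0.09 lower in DU than HU (adjusted p = 0.0075) and 0.39 ± 0.09 in DT vs. DU, just outside the threshold (adjusted p = 0.0519). The latter was called higher without DT3, DU3 or HU3, and also after quantile normalization, median centring, without the arrays of chip lot 3 or with scan day as a random block.

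Ppargc1a, a coactivator of mitochondrial genes, read 4.04, 4.12 and 4.09 in HU, 4.11, 4.04 and 4.02 in HT, 3.95, 3.95 and 4.13 in DU and 4.03, 4.07 and 4.01 in DT. All arrays lay within a narrow span near the bottom of the array's range, and the DU vs. HU difference was -0.07 ± 0.08, with a 95% interval of -0.24 to 0.09. Pdk4, a kinase that shuts off pyruvate dehydrogenase when fat is burned, was 0.89 ± 0.18 higher in DU than HU (adjusted p = 0.0183), and its DT vs. DU difference of -0.51 ± 0.18 was not called (adjusted p = 0.323). The Pdk4 call was lost without DU1, DU3, HU1 or HU3, at adjusted p between 0.0575 and 0.0801. The kinase Pdk2, the uncoupling protein genes Ucp2 and Ucp3 and the lipid droplet gene Plin2 were not called in either comparison, with DU vs. HU differences of 0.01, -0.02, -0.18 and -0.25.

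Batches bear on the DU vs. HU comparison. Of the DU and HU arrays only DU1 and HU3 shared a scan day with another group. The sizes and calls with scan day as a block therefore rest on DU1, HU3 and treated arrays, and cannot show which differences come from batches. With scan day as a block, which links DU to HU only through the treated groups, 1 gene, Decr1, was still called higher (3.00 ± 0.42, adjusted p = 0.0345). Some of the others kept their size and lost the call with wider errors, such as Acadl at 1.73 ± 0.27 (adjusted p = 0.0501), Hadh at 1.94 ± 0.33 (adjusted p = 0.0785), Ech1 at 2.26 ± 0.51 (adjusted p = 0.201), Hadhb at 1.08 ± 0.22 (adjusted p = 0.148) and Ehhadh at 1.09 ± 0.24 (adjusted p = 0.165). Acadm, Etfa, Etfdh and Hadha were at 0.81, 0.77, 0.75 and 0.90, and Angptl4, Cpt1a and Eci1 at 1.18, 0.33 and 0.44. The difference shrank to 0.23 ± 0.37 in Acaa2, 0.25 ± 0.31 in Pdk4, 0.15 ± 0.31 in Etfb and 0.08 ± 0.38 in Hsd17b4. With chip lot as a block 10 were called, and Acadm, Hadha, Acaa2, Eci1, Etfb, Hsd17b4 and Pdk4 were not. Within chip lot 1, DU1 and DU2 against HU3 alone, the median over the 41 genes was 0.20, and the difference was 2.93 in Decr1, 1.70 in Ech1, 1.64 in Acadl, 1.58 in Hadh, 1.36 in Angptl4 and -0.43 in Ppara.

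The DT vs. DU differences could be read within batches more directly. On scan day 1, DT1 and DT2 against DU1, the median was -0.22 and 28 of 41 genes were lower, with -2.46 in Decr1. A block for scan day takes the DT vs. DU difference from these same arrays, so it is not a separate reading. In chip lot 1 the median was -0.23 with 30 lower, and in chip lot 3, DT3 against DU3, it was -0.33 with 34 lower, with -2.06 in Decr1. With scan day as a block, 9 genes were called lower, 8 of them among the 13, and Cpt1a, Cpt2, Acaa2, Eci1 and Etfdh were not. Ppara was not called in DU vs. HU with either block, at -0.60 ± 0.21 (adjusted p = 0.44) with scan day and -0.44 ± 0.11 (adjusted p = 0.0701) with chip lot.

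In DT compared to HU animals, none of the 41 genes was called with limma, while 1.32% of all probe sets were, 0.756% higher and 0.561% lower. Without adjustment p was under 0.05 for 10 genes (24.4%, against 16.6% of all probe sets), and no gene had a B-statistic above 0, against 1.18% of all probe sets. The DT arrays lay above those of HU in 11 genes (26.8%, against 9.62% of all probe sets) and below them in 5 (12.2%, against 11.4%). Decr1 had the widest difference, 0.57 ± 0.15 (adjusted p = 0.0752), and Acadl differed by 0.31 ± 0.10 (adjusted p = 0.152). Crot, at 0.36 ± 0.09, had the smallest adjusted p, 0.0663. The 95% interval was -0.06 to 0.34 in Hadhb, -0.41 to 0.19 in Hadh and -0.41 to 0.35 in Ech1. Without DT2, Decr1 and Acadl were called, and without DT3, Oxct1, so that the count was 2 and 1 in place of 0. In chip lot 1 the median over the 41 genes was 0.00.

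In HT compared to HU animals no gene was called with limma or by the B-statistic, and 0.0063% of all probe sets, that is 1, were called at the adjusted p. Without adjustment p was under 0.05 for 4 of the genes, Acads, Hadhb, Acox2 and Pdk4, against 5.41% of all probe sets. The arrays of HT lay above those of HU in 1 gene and below them in 4, against 5.74% and 5.83% of all probe sets. The median was -0.08, within chip lot 2 also -0.08, and on scan day 3, HT1 and HT2 against HU3, -0.11. The difference was -0.07 ± 0.15 in Decr1, with a 95% interval of -0.38 to 0.25, and -0.26 ± 0.09 in Hadhb.

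The effect of tungstate in diabetic animals was then compared with that in healthy animals, as the DT vs. DU difference minus the HT vs. HU difference. 7 of 41 genes (17.1%) were called lower by this interaction and none higher, where 0.151% of all probe sets were called lower and 0.271% higher. These were Decr1 (-2.27), Angptl4 (-1.75), Ech1 (-1.56), Hadh (-1.31), Acadl (-1.24), Ehhadh (-0.86) and Hadhb (-0.71). 5 of them belong to the 13 genes of the mitochondrial spiral, 1 is peroxisomal, and none is a ketone gene. The same number, 7, had a B-statistic above 0, against 0.58% of all probe sets. Without HU1, 4 genes were called, Hadhb, Ech1 and Ehhadh being lost, and with scan day as a block 2 were, Decr1 and Angptl4.

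The promoter table, RefSeq sequence of GRCr8 from 250 bases before to 50 after each start, had entries for 37 of the 42 genes, in 38 windows, and for 13 of the 17 genes higher in DU. Both strands were searched. GGGCGG, the GC box, was found in 27 of the 38 windows (71.1%), in 11 of the 13 of genes higher in DU (84.6%) and in 33.1% of all 33465 windows. AGGTCA was found in 7 (18.4%), in 3 of the 13 (23.1%) and in 16.2% of all. The PPAR element itself, a direct repeat of AGGTCA with 1 base between the copies, was in none of the 38 and in 0.0538% of all windows, and the same repeat with any base at the fourth position of each copy in none and in 0.415%. The half-site is contained in the repeat. CCAAT was in 39.5% and in 37.5% of all, and TATAAA in 7.89% and in 14.2%. These matches are a description of the letters in these windows. The windows of all genes were not matched to these in their share of G and C, nor limited to genes on the array. The shares of GGGCGG therefore do not set these genes apart. Decr1, Ech1, Acadl, Acaa2 and Cpt1b have no entry.

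Of 100 further genes of these pathways, 75 were measured, and 7 were higher and 1 lower in DU than HU, with a median of 0.05. The shares over all probe sets were 1.47% and 1.73%. Txnip was the furthest, at 2.57 ± 0.19 (adjusted p = 4.31e-06), and was -2.23 ± 0.19 in DT vs. DU. It was listed with the PPAR partners and targets, but encodes an inhibitor of thioredoxin and not an enzyme of fatty acid oxidation. Vnn1, a pantetheinase and a PPARα target, was 0.96 ± 0.12 higher in DU and -1.20 ± 0.12 in DT vs. DU, with a dim probe set. Mlycd, which breaks down the CPT1 inhibitor malonyl-CoA, was 0.70 ± 0.10 higher, Hsd17b10, a mitochondrial dehydrogenase, 0.73 ± 0.13, and the transporter Slc27a1 0.49 ± 0.09. Pecr, a peroxisomal trans-enoyl-CoA reductase, was 0.55 ± 0.09 lower. In DT vs. DU 3 of the 75 were lower, Txnip, Vnn1 and Slc27a1, and none was higher, against 0.46% and 0.655% of all probe sets. Of the 20 further mitochondrial and carnitine genes 4 were higher in DU, and of the 19 further genes listed as peroxisomal none was. With 1.47% of all probe sets called higher, none of 19 does not set the latter apart. That list also holds Pmp22, which encodes a peripheral myelin protein and is not peroxisomal. Of the 33 further genes listed as PPAR partners and targets, 3 were higher in DU, Txnip and Vnn1 among them. In this list 22 of the 33 differences were positive, with a median of 0.08. Cyp4a1, Cyp4a3 and Fabp3 of the same list were not higher, with means of 6.55, 8.97 and 6.61 in HU and 6.49, 8.79 and 6.31 in DU.

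The RNA came from whole pancreas, so fewer cells of a type and less RNA per cell cannot be told apart. Of 15 acinar marker genes, 1 was lower (Amy2a3) and 1 higher (Prss2) in DU than HU. Amy2a3, an amylase, read 13.20, 13.10 and 13.07 in HU, 8.59, 6.45 and 8.78 in DU and 13.17, 12.98 and 12.70 in DT. Most of the other acinar markers read near the top of the range of the array in every group, so that their summed intensity is no measure of acinar content and is not given. The 6 beta cell markers, of which 4 were lower in DU, summed to between 24855 and 27101 in HU, 2374 and 3170 in DU and 3484 and 8674 in DT. Of cells that burn much fat, markers of skeletal muscle summed to between 311 and 333 in HU and 307 and 328 in DU, of heart muscle to between 203 and 214 and 203 and 219, of liver to between 431 and 461 and 412 and 447, and of brown fat to between 141 and 165 and 141 and 151. None of these 16 markers was called in DU vs. HU, and Acta1, Myh4, Myh6, Tnnt2, Ucp1 and Dio2 were dim. The 9 adipocyte markers summed to between 1254 and 1987 in HU and 1205 and 1396 in DU, with Thrsp called lower. The 6 endothelial markers summed to between 953 and 1063 in HU and 887 and 915 in DU, and the 2 erythrocyte markers to between 2593 and 4920 and 1256 and 1746, with Hbb called lower. Of 13 leukocyte and 12 stellate and fibroblast markers none was called in DU vs. HU, with sums that overlapped between these groups. In DT1, DT2 and DT3 the leukocyte markers summed to 2546, 3215 and 6627, against 4392 to 6766 in DU, and the stellate and fibroblast markers to 2192, 2372 and 3691, against 3186 to 4029. None of them was called in DT vs. DU with limma, and the unadjusted p was under 0.05 for 2 of the 13 and 4 of the 12. Of 8 duct markers Sctr was lower in DU, and of 7 markers of other endocrine cells 1 was higher (Sst) and 2 were lower (Scg2 and Pcsk2). The part of these differences in the results above was not tested.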

How the data were processed

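RNA of whole pancreas was hybridised to 12 rat expression arrays (Affymetrix RAE230-A), 3 for each of HU, HT, DU and DT, and samples were grouped by their titles. The deposited values are log2 intensities that the authors made with RMA in Bioconductor's affy package, which adjusts for background, equalises the distributions of the arrays by quantiles and summarises the probes of a set. For affy, the version was not given in the sources used. Depth has no meaning for arrays, and precision is limited by their number.

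From these values 57 control probe sets were left out and the other 15866 fitted with limma 3.58.1 in R 4.3.3, 1 mean per group over all 12 arrays, with Benjamini-Hochberg adjustment over all probe sets of a comparison. Each gene was read from its brightest probe set among those with 1 symbol (12783 probe sets have 1 symbol, 312 several and 2771 none). Values of every array were to be printed for the 14 genes with the smallest adjusted p in DU vs. HU or DT vs. DU and for Cpt1a, Cpt1b, Ppara, Ppargc1a, Ehhadh, Acat1, Bdh1 and Oxct1, and of the further pathway genes the 6 with the smallest adjusted p were to be named. The genes and lists were chosen with earlier results of these data known. The procedure was tested on simulated data with independent noise and no effect of scan day or chip lot, so that test says nothing about batches. Alternatives were quantile normalization, median centring, a filter on dim probe sets, the mean of probe sets, a trended and robust fit, only the arrays compared, blocks for scan day, chip lot and replicate number, the B-statistic, and leaving out each array. Leaving out chip lot 3 and a random block for scan day were added after seeing the data. Scan days and lots were taken from the array records. Promoter sequences are from RefSeq (GRCr8).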

Additional observations from a re-analysis of the deposited data

Results flagged for a closer look

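For 7 genes the effect of tungstate differed between diabetic and healthy animals by the interaction term of limma, all with a more negative difference in diabetic animals. In Decr1 the DT vs. DU difference was -2.34 and the HT vs. HU difference -0.07, an interaction of -2.27 (adjusted p = 0.000113). In Angptl4 they were -1.72 and 0.03, with an interaction of -1.75 (adjusted p = 0.000643). In Acadl they were -1.29 and -0.06, with -1.24 (adjusted p = 0.00107). In Hadh they were -1.45 and -0.14, with -1.31 (adjusted p = 0.00785), and with the mean of its probe sets Hadh was not called. In Ech1 they were -1.78 and -0.22, with -1.56 (adjusted p = 0.0133). In Hadhb they were -0.97 and -0.26, with -0.71 (adjusted p = 0.0305), and in Ehhadh -0.88 and -0.01, with -0.86 (adjusted p = 0.0305). The call was lost without any 1 of 9 arrays in Hadhb, any 1 of 8 in Ehhadh, and HU1 in Ech1. In Angptl4 and Ehhadh the HU and HT arrays lay under 5.62, the mark for dim probe sets, where a lower value in HT would be hard to see.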

How the results depend on the processing

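Over 24 alternatives, 12 of them leaving out 1 array, 782 of 902 values of called genes kept their call, 120 lost it and 0 changed sign. In many of these the difference itself could not move, so its sign was fixed. Examples are the B-statistic, the trended and robust fit, and leaving out an array of a group not compared. Genes higher in DU than HU numbered 17, and 1 with scan day as a block, 10 with chip lot as a block, and 13 to 18 when an array was left out. Lower in DU was 1 gene, 0 with either block, 2 without dim probe sets, with only the arrays compared, in the trended and robust fit or without chip lot 3 (Oxct1 being added), and 1 to 2 when an array was left out. Lower in DT than DU were 13 genes, and 10 to 13 when an array was left out. Higher in DT than DU was 0, and 1 (Ppara) with quantile normalization, median centring, without chip lot 3 or with scan day as a random block, and 0 to 1 when an array was left out. In DT vs. HU the count of 0 became 1 without chip lot 3, and 0 to 2 when an array was left out. In HT vs. HU it stayed 0 in the alternatives run. The interaction count of 7 became 2 with scan day as a block, and 4 to 8 when an array was left out; it was not run with only the arrays compared.

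Of 18 same-numbered pairs of arrays, 5 correlated above 0.1 in their deviations from the group means (range -0.29 to 0.31). Pairs of unlike number were not computed, so whether replicate numbers pair the arrays is not settled. With the replicate number as a block, 18 genes were higher and 2 lower in DU, 12 were lower in DT than DU and 6 were called in the interaction. No scan day holds both DU and HU, so scan day and diabetes can be separated only through the treated groups, with DU1 and HU3 as the only DU and HU arrays that count. Each array is a pool, so p-values measure the spread between pools. Dim probe sets limit what can be said of Acadsb, Eci2, Ehhadh and Ppargc1a. Angptl4 and Etfdh were as low outside DU, and the filter on dim probe sets kept them. The causes of the lost calls were not tested.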
